A study of Mus musculus with 192 samples.

Results

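Divergent promoter peak pairs are sites where 2 called start-site peaks face away from each other: a peak on the minus strand and, 0 to 1000 bp further along the chromosome, a peak on the plus strand. They were selected on the measured listings themselves, from windows that the deposited GENCODE table annotates as promoter, with each peak position (chromosome, strand and exact start) listed in 10 or more cells over both groups. The rule found 529 such pairs, which chained through shared positions into 86 loci with 439 positions, of 6889 promoter positions listed in 10 or more cells (6.37%) and 193249 promoter positions in all. In 80 loci both strands were assigned a protein-coding gene. In 3 loci one gene was non-coding (Rpph1/Parp2, Mir5136/1810009A15Rik and Atp5f1/Gm42890), and in 3 loci at least 1 strand had no named gene. Loci are named by the minus-strand gene and then the plus-strand gene.

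A divergent, or bidirectional, promoter is a stretch of DNA from which RNA polymerase II starts transcription in both directions. In mammals many housekeeping genes are arranged head to head, with 2 coding genes sharing such a stretch, which is often GC-rich and without a TATA box. Because the genes lie on opposite strands, a method that reads the 5′ ends of RNA with strand can assign each start to its gene.

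The data are start-site profiles of single mouse embryonic fibroblasts, primary connective-tissue cells of strain C57BL/6. All cells of both groups had received interferon-beta, a secreted antiviral cytokine, at 100 U/ml for 1 h. The groups are 96 naïve cells and 96 pretreated cells, and the labels name neither the pretreatment nor a culture, animal or plate. After removal of cells with few tags, 92 naïve and 85 pretreated cells remained. Each group is 1 sample made of cells, so no difference between groups was tested. Every interval treats the loci or strands as independent draws and does not cover variation between cells, cultures or animals.

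Total tags per kept cell ranged from 305066 to 3857034 in naïve and from 502374 to 13174313 in pretreated cells, with a median of 5231.5 and 6605 listed peaks. Of 13 fibroblast markers, 7 were listed in 50% or more of each group's cells (Col1a1, Col1a2, Col3a1, Vim, S100a4, Fn1 and Sparc). Of the same 13, 1 was listed at 0 in naïve and 3 in pretreated cells. All endothelial and epithelial markers were listed at 0 in both groups. Summed markers of macrophages and blood were at 8.3 CPM (tags per 1000000) in naïve and 1.99 in pretreated cells, neural markers at 0 and 13, and muscle markers at 0 and 0.46, against 4928 and 6904 for the fibroblast markers. The 2 groups of files differed in the listing of mitochondrial sequence. Peaks on the mitochondrial chromosome were listed in 92 of 92 naïve and 0 of 85 pretreated cells. The locus Gm13340/unnamed, on chromosome 2, was listed in 0 naïve and 85 of 85 pretreated cells; Gm13340 is a nuclear pseudogene copy of mitochondrial sequence. The totals used to scale tags include these peaks. Mitochondrial peaks held 1390011 of 183158455 tags in peaks of the naïve group. Gm13340 held 930355 of 242515206 in the pretreated group. Whether the files of the 2 groups were mapped in the same way was not tested.

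The sequences of 6 loci show what such a stretch holds. They are the loci with most cells listing both strands among those with an annotated divergent pair and a single entry for the plus-strand gene in the RefSeq promoter table (build GRCm38), each from 250 bases before to 50 bases after the start of the plus-strand gene, 5′ to 3′ on the plus strand. Psma2 covers chr13:14612992-14613291, Timm8b chr9:50603651-50603950, Hspe1 chr1:55087898-55088197, Pdcd11 chr19:47090516-47090815, Fau chr19:6057697-6057996 and Tcp1 chr17:12916079-12916378. Capitals mark matches on either strand to the GC box GGGCGG, the CCAAT box CCAAT, the ETS motif CCGGAAG, the NRF1 motif and the TATA box TATAAA.
Psma2: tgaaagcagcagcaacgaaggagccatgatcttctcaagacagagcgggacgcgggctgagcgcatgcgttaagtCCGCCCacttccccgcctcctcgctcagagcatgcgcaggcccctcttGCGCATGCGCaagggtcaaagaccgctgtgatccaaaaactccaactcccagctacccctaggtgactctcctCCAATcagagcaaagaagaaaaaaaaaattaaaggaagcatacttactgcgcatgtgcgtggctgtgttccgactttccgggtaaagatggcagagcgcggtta
Timm8b: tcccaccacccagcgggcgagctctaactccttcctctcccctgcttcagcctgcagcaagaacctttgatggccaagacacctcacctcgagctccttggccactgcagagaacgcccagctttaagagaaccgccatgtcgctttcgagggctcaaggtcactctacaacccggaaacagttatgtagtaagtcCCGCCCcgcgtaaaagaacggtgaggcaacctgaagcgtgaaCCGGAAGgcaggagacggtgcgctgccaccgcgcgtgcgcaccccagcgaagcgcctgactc
Hspe1: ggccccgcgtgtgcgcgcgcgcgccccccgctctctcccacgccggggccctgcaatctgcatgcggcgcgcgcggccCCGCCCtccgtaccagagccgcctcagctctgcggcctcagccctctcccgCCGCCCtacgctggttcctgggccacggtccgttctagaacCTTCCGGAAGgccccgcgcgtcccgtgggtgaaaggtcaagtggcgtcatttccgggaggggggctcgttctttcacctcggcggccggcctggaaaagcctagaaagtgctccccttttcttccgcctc
Pdcd11: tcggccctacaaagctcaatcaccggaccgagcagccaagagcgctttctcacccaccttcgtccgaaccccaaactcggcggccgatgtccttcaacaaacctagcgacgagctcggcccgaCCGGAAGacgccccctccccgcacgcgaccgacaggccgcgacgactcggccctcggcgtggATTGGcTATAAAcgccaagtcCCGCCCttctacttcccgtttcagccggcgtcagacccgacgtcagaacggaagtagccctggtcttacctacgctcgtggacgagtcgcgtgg
Fau: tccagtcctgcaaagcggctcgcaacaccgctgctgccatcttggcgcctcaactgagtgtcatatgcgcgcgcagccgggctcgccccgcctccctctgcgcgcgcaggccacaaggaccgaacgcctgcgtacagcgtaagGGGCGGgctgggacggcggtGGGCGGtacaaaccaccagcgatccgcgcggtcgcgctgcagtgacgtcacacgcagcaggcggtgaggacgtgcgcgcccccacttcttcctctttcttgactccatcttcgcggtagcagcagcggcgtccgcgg
Tcp1: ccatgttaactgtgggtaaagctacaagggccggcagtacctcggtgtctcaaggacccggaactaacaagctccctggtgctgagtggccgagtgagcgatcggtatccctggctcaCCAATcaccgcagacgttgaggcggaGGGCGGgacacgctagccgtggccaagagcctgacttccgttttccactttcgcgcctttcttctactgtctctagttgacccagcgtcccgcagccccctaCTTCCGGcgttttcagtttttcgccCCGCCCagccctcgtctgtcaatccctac

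In all 6 stretches the annotated start of the plus-strand gene is base 251, and that of its minus-strand partner also lies inside. The partner start is base 46 for Mrpl32 beside Psma2, base 199 for Sdhd beside Timm8b, base 35 for Hspd1 beside Hspe1, base 132 for Usmg5 beside Pdcd11, base 59 for Mrpl49 beside Fau and base 13 for Mrpl18 beside Tcp1. Each of the 6 holds at least 1 GC box between or beside the starts. The TATAAA match stands only in the Pdcd11 stretch, and the NRF1 match only in that of Psma2. In Hspe1, an ETS match on each strand overlaps its mirror image (CTTCCGGAAG).

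The same letters were counted in 126 promoters, those of both genes in the 63 loci where RefSeq has an annotated divergent pair. CCGGAAG was present in 42.9% of member promoters, against 25% of the promoters of 2098 other genes with a position in 10 or more cells and 9.12% of all 27025 promoters of that length. AAGATGGCG, the YY1 motif, stood in 14.3% of member promoters, 4.81% of the other expressed and 1.49% of all promoters. For the GC box the shares were 68.3%, 65.9% and 35.9%, and for CCAAT 40.5%, 41.3% and 37.9%. TATAAA was found in 9.52%, 8.87% and 14.2%. The interferon response element core was found in 3.17%, 4.67% and 3.49%. The E-box CACGTG stood in 6.35%, 11.2% and 7.24%, and the NRF1 motif in 3.17%, 2.76% and 0.977%. Median GC content was 61.7% in members, 60% in other expressed genes and 52.7% in all. All motifs were searched on both strands. The 2 genes of 1 locus share much of their sequence, so member promoters are not independent, and a match is a description of letters only.

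The starts of the leading pair, the pair listed in the most cells, lay a median of 259.5 bp apart (quartiles 142.5 and 387 bp, range 46 to 948 bp). In 52 of 86 loci (60.5%, exact binomial 95% interval 49.3 to 70.8%) the distance was 300 bp or less, in 24 it was 150 bp or less and in 9 it was 100 bp or less. Only 8 loci had starts over 600 bp apart. The rule set the 1000 bp limit and the orientation, so these values describe the members. At its edges, 7 pairs lay in the last 100 bp inside the limit (the largest at 959 bp) and 2 in the first 100 bp beyond it, and 51 member positions were listed in exactly 10 cells; with a minimum of 9 cells there would be 102 loci.

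**Figure D1:**
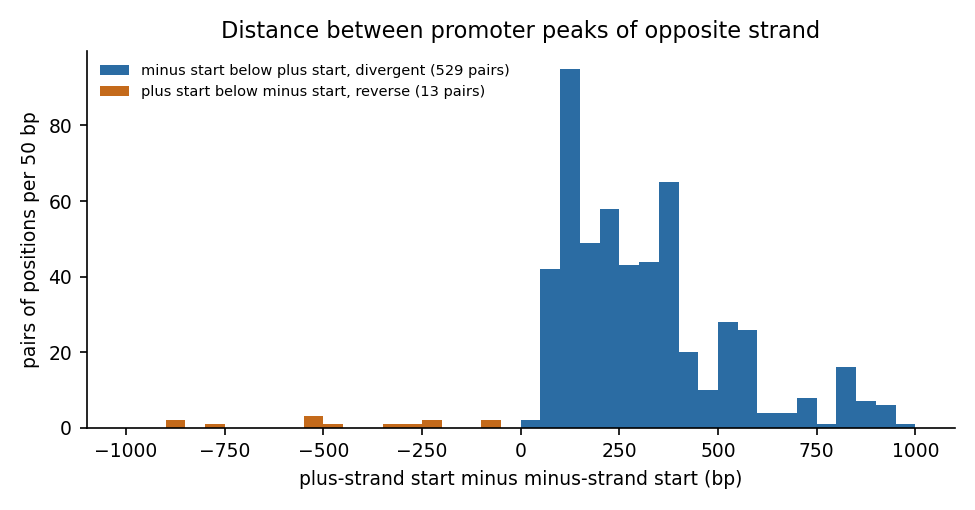
Number of pairs of promoter positions (y axis) by the plus-strand start minus the minus-strand start in bp (x axis, bins of 50 bp); blue bars are divergent pairs and orange bars the reverse arrangement. The 529 divergent pairs gather between about 50 and 600 bp, against 13 reverse pairs, whose number the annotation of promoter windows limits.

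The reverse arrangement, with the plus-strand start below the minus-strand start, gave 13 pairs in 7 loci at the same settings. A promoter window is tied to the start of its gene, which limits that count. With windows of any annotation there were 558 divergent pairs in 100 loci and 107 reverse pairs in 43 loci. Within a divergent locus, the distances of its pairs spanned a median of 23 bp, and 69 loci spanned 50 bp or less, so most loci are 1 cluster of starts on each strand. Where the deposited table's nearest start was on the strand of the peak (145 of 172 strands), the median absolute distance to it was 10 bp, and 128 strands were within 50 bp. Members lie in promoter windows by the rule, which itself limits this distance. For 48 loci RefSeq gave 1 divergent combination; the annotated distance there had a median of 141.5 bp, and the measured distance was a median of 80 bp longer.

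Among loci with both strands in 10 or more common cells, the shortest distances were 56 bp at Zcrb1/Pphln1 (chr15:93228663-93228812 and chr15:93228719-93228868 on build mm9, windows of the minus and the plus peak), 69 bp at Tatdn1/Ndufb9 and 70 bp at Gm13340/unnamed. Zcrb1 encodes an RNA-binding protein of the minor spliceosome, and Ndufb9 a subunit of respiratory complex I. The longest were 869 bp at Alg3/Gm49333, 816 bp at Hnrnpa2b1/Cbx3 (chr6:51419770-51419919 and chr6:51420586-51420735) and 689 bp at Trappc4/Rps25. All are distances of the leading pair. Gm13340/unnamed also had a pair 936 bp apart, and the pairs of Trappc4/Rps25 ran from 291 to 692 bp. Alg3 is a mannosyltransferase of N-glycan assembly. Hnrnpa2b1, an RNA-binding protein gene, and Cbx3, which encodes the heterochromatin protein HP1 gamma, form a pair long known as an open, methylation-free chromatin element.

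No molecular identifiers are mentioned and duplicate handling is not given, so tags are not taken as counts of molecules. Tags summed over cells were seldom equal between the strands. The weaker strand held a median of 15.2% of the tags of its locus (quartiles 4.33 and 26.4%, range 0.39 to 46.4%). It held 10% or more in 52 loci (60.5%, 49.3 to 70.8%), 25% or more in 25 loci and 40% or more in 11 loci. In 9 loci it held under 2%. The stronger strand was minus in 44 loci and plus in 42. Across loci the share was only weakly related to distance (Spearman rho 0.13 over 86 loci, a description). All these values use tags at the exact member positions. With every peak of the strand within 50 bp of them, the median share was 19.7%, and 77.9% of loci had 10% or more.

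**Figure D2:**
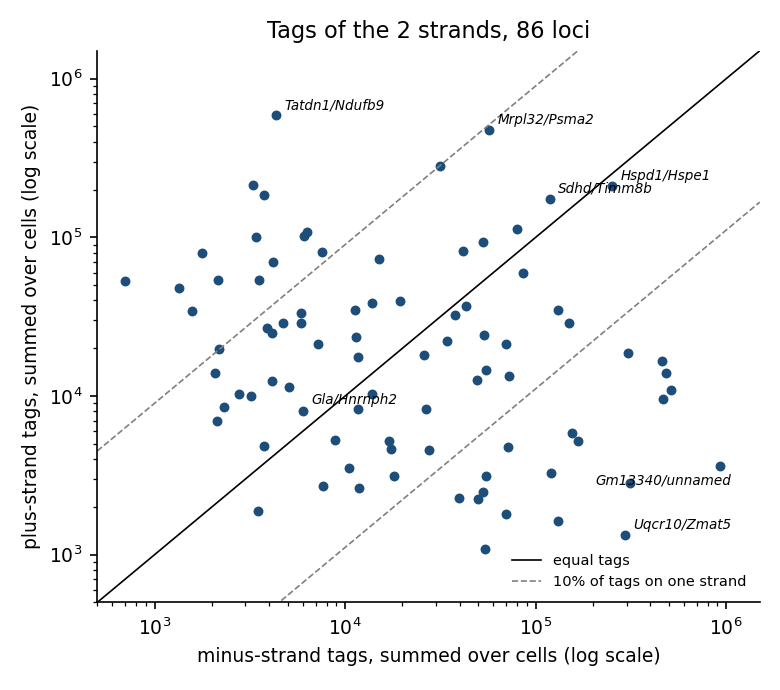
Tags on the minus strand (x axis) and plus strand (y axis) of each of the 86 loci, summed over the kept cells of both groups, on log scales; the solid line marks equal tags and the dashed lines 10% of the tags on one strand. Hspd1/Hspe1, Sdhd/Timm8b and Gla/Hnrnph2 lie near equality, and 34 loci lie outside the dashed lines, among them Tatdn1/Ndufb9 and Uqcr10/Zmat5. Only tags at the exact member positions are summed.

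At the exact member positions, the most balanced locus was Tbcb/Polr2i (46.4% on the weaker strand). Tbcb, a tubulin-folding cofactor, had 37677 tags and Polr2i, an RNA polymerase II subunit, had 32625. Sdha/Ccdc127 followed at 45.9%; Sdha encodes the flavoprotein subunit of succinate dehydrogenase. Hspd1/Hspe1, which encode the mitochondrial chaperonin Hsp60 and its cap Hsp10, had 252179 and 210609 tags (45.5%). Sdhd, the membrane anchor of succinate dehydrogenase, had 118614 tags and Timm8b, a chaperone of the mitochondrial intermembrane space, 174996 (40.4%). With peaks within 50 bp, the weaker strand held 49.1% at Tbcb/Polr2i, 46% at Sdha/Ccdc127, 49.4% at Hspd1/Hspe1 and 36.3% at Sdhd/Timm8b.

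At the other end, Tatdn1 had 4321 tags and its neighbour Ndufb9 had 586991, so 0.731% of the tags were on the weaker strand. Uqcr10, a subunit of respiratory complex III, had 293554 tags and Zmat5, a zinc-finger protein of the minor spliceosome, 1331 (0.451%). The lowest share of all, 0.39%, was that of Gm13340/unnamed. In Usmg5/Pdcd11 the Usmg5 side, an ATP synthase-associated protein, had 458470 tags and Pdcd11, a ribosomal RNA processing factor, 16640 (3.5%). With peaks within 50 bp, the weaker strand held 2.1% at Tatdn1/Ndufb9, 1.55% at Uqcr10/Zmat5, 0.483% at Gm13340/unnamed and 4.26% at Usmg5/Pdcd11.

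By gene lists matched on symbols, the loci held 6 of the 63 mitochondrial ribosomal protein genes with a position in 10 or more cells (Mrpl18, Mrpl30, Mrpl32, Mrpl46, Mrpl49 and Mrps11) and 4 of 37 complex I genes (Ndufa2, Ndufaf7, Ndufb9 and Ndufs3). They held 2 of 11 listed RNA polymerase II and III subunit genes (Polr2i and Polr2l), 2 of 42 proteasome genes (Psma2 and Psmc5) and 2 of 29 chaperone genes (Hspd1 and Hspe1). Of 59 cytosolic ribosomal protein genes only Rps25 was in a locus, and no gene of the repair and replication (15), tRNA synthetase (15) or collagen (6) lists was. The lists go by symbol and leave out related genes that are in loci: Fau for the ribosome, Tcp1 for the chaperones, Polr1c for the RNA polymerases, and Orc6, Cdc45, Rpa3, Parp2 and Apex1 for repair and replication. Over all 2977 genes with such a position the number was 163 (5.48%). Mrpl46 and Mrps11, subunits of the large and the small mitochondrial ribosomal subunit, stand in 1 locus opposite each other.

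The file of a cell holds only called peaks, so a strand that is not listed may still be transcribed. The caller was set to a minimum of 200 tags per 10000000, per the file headers, and listed member peaks went down to a signal of 170.9 (naïve) and 156 (pretreated). Of the 86 loci, 82 had both strands of a pair listed in at least 1 cell and 41 (47.7%, 36.8 to 58.7%) in 10 or more cells. The 4 loci never listed together at these exact positions were Txndc9/Eif5b, Ppwd1/Cenpk, Psenen/U2af1l4 and Ciapin1/Coq9. Of the cells that listed either strand of a locus, a median of 10.4% listed both (range 0 to 59.1%). In a cell, a median of 9 loci had both strands listed, in naïve (range 1 to 20) as in pretreated cells (0 to 20).

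Mrpl32/Psma2 (chr13:14705240-14705389 and chr13:14705453-14705602, mm9) was listed on both strands in the most cells, 98 of 176. Mrpl32 encodes a mitochondrial ribosomal protein and Psma2 an alpha subunit of the 20S proteasome. The signal, tags per 10000000 tags of the cell, ran in the cells listing it from 246.8 through a median of 1388.4 to 4087.7 for Mrpl32 in naïve cells and from 358.8 through 2154.8 to 5242 in pretreated cells. For Psma2 it ran from 524.5 through 10607 to 28442.8 and from 221.5 through 8127.9 to 16779.8. Psma2 was listed in 174 cells and Mrpl32 in 100, so nearly every cell that listed the weaker strand also listed the stronger.

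Sdhd/Timm8b followed with 94 of 159 cells. Sdhd ran from 205.6 through a median of 2443.8 to 9143.3 in naïve cells and from 267.4 through 2781.6 to 7708.4 in pretreated cells. Timm8b ran from 279.4 through 5334.5 to 22665.1 and from 429.9 through 4026.2 to 10054.6. The ranges of the 2 strands and of the 2 groups overlapped, and Timm8b in naïve cells reached the highest values.

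Hspd1/Hspe1 (chr1:55144606-55144755 and chr1:55145122-55145271, mm9) had both strands in 87 of 162 cells. The median signal of Hspd1 was 7853 in naïve cells (354.6 to 23031.1) and 4999.1 in pretreated cells (1359.3 to 13326). For Hspe1 the medians were 5308.9 (229.5 to 16137.8) and 5902.3 (1485.4 to 14602.8). In cells listing both, the 2 signals were correlated across cells with Spearman rho 0.40 (47 naïve cells) and 0.36 (40 pretreated cells). These are descriptions, because the cells of a group are not replicates and both signals of a cell share its scaling. Other loci had values of mixed sign, such as -0.11 and 0.06 in Sdhd/Timm8b and -0.54 and 0.17 in Aamp/Pnkd. The sign was the same in both groups at Vps35/Orc6 (0.16 and 0.11) and Usmg5/Pdcd11 (-0.05 and -0.21).

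The next loci were Hnrnpa2b1/Cbx3 with 85 cells, Usmg5/Pdcd11 with 64, and Vps35/Orc6 with 64. Vps35 is the core of the retromer, which returns receptors from endosomes, and Orc6 a subunit of the origin recognition complex. Aamp/Pnkd and Mrpl49/Fau had 54 cells each; Fau encodes a ubiquitin-like protein fused to a small-subunit ribosomal protein. Mrpl18/Tcp1 had 50, Nop16/Higd2a 48, Npc2/Isca2 45 and Ndufa2/Ik 37 cells. Tcp1 is a subunit of the cytosolic chaperonin, Nop16 a nucleolar ribosome assembly factor, Higd2a a respiratory supercomplex factor, Npc2 a lysosomal cholesterol carrier, Isca2 an iron-sulfur cluster protein and Ik a splicing factor. In Mrpl49/Fau the plus strand was listed in 146 cells and the minus strand in 63, whereas in Ndufa2/Ik the minus strand was listed in 145 and the plus strand in 44.

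**Figure D3:**
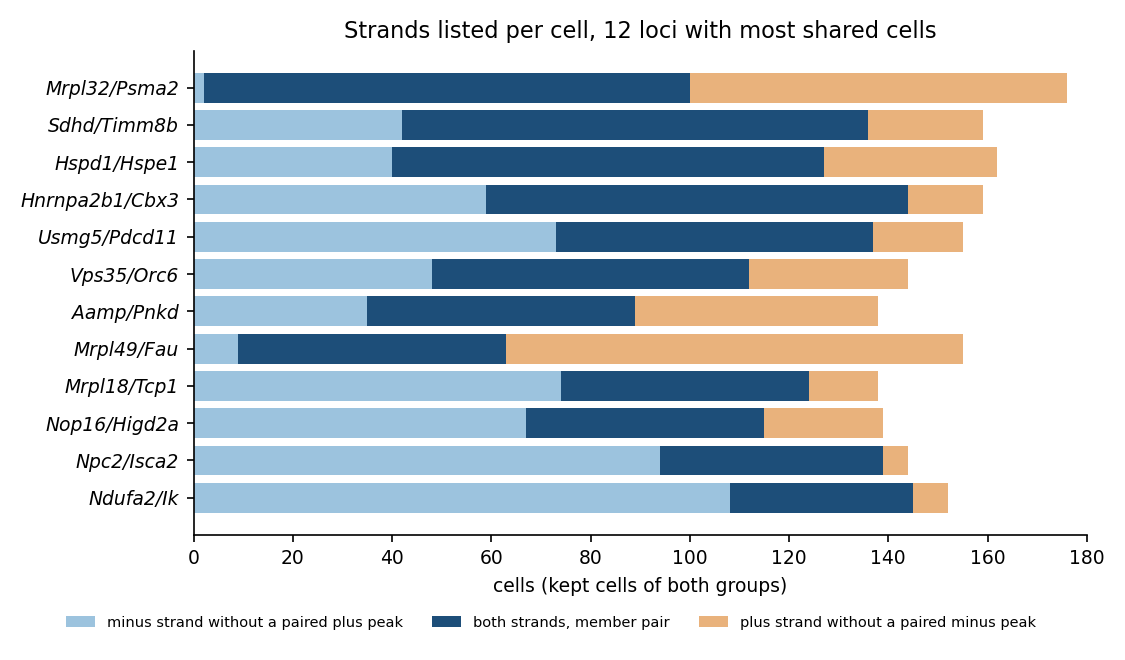
Cells (x axis, kept cells of both groups) that listed only the minus strand (light blue), both strands as a member pair (dark blue) or only the plus strand (orange) at the 12 loci with the most cells listing both. Mrpl32/Psma2 leads with 98 cells and almost no cell with the minus strand alone, and Ndufa2/Ik, the last, has 37 cells with both.

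Cells with both strands were close in number to what the shares of cells listing each strand give when multiplied. Over all loci 1538 listings of both were observed and the product within each group gave 1494.7, a ratio of 1.03. The ratio was 1.02 in naïve cells (821 against 805.9) and 1.04 in pretreated cells (717 against 688.8). Over the 86 loci it ran from 0, in the 4 never listed together, to 2.48 at Srsf11/Lrrc40 (9 cells against 3.63). Among the 41 loci with 10 or more common cells, a choice that itself favours high ratios, the highest was 2.16 at Gla/Hnrnph2, with 12 cells against 5.55; Gla encodes the lysosomal alpha-galactosidase A and Hnrnph2 an RNA-binding protein. Cells differ in depth and in listed peaks, and their part in the ratio was not tested.

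Because an exact start can differ by a few bases from cell to cell, the listing was repeated with every peak of the strand within 50 bp of the member positions. Then 84 of 86 loci had both strands in 10 or more cells, 20 had them in over 100 cells, and none was without a common cell. The median share of listing cells with both was 38%, and the ratio to the product was 1.02 (5594 against 5471). Hspd1/Hspe1 now had both in 170 of 176 cells (96.6%), Mrpl32/Psma2 in 165 of 177 (93.2%) and Sdhd/Timm8b in 156 of 175 (89.1%). Brd2/H2-DMa was lowest, with 3 of 72 cells. The ratio lay between 0.9 and 1.1 in 73 loci. A strand listed in every cell sets the ratio to 1 by construction, as Usmg5 does in Usmg5/Pdcd11 (126 cells against 126) and Ndufb9 in Tatdn1/Ndufb9 (72 against 72), so closeness to the product says little in such loci. The ratio was lowest in Brd2/H2-DMa (0.42, 3 cells against 7.15) and highest in Bag5/Apopt1 (1.21, 23 cells against 19). By group, the median share of listing cells with both was 27.8% in naïve and 44.2% in pretreated cells, beside the higher number of listed peaks in the latter.

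**Figure D4:**
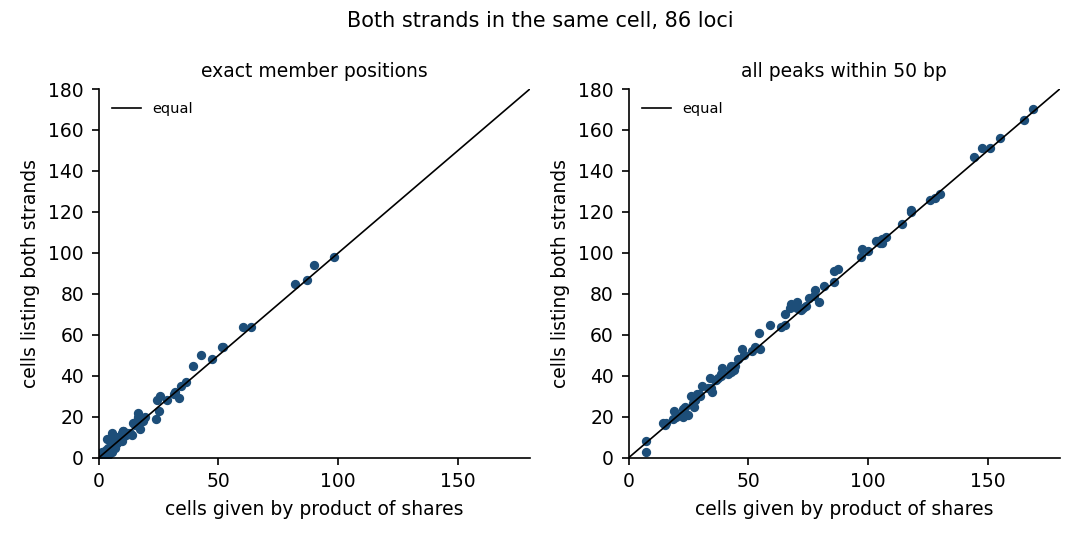
Cells listing both strands (y axis) against the number given by multiplying the shares of cells that list each strand, summed over the groups (x axis), for the 86 loci at the exact member positions (left) and with all peaks within 50 bp (right); the line marks equality. Points follow the line in both panels, and the counts rise from at most 98 cells on the left to 170 on the right.

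With 1 sample per group, the comparison of pretreated with naïve cells gives sizes only. Member positions took up 2.29% of all peak tags in the naïve group and 2.69% in the pretreated group; without Gm13340/unnamed these were 2.29% and 2.31%. Of 172 strands, 163 had tags in both groups, and their median log2 ratio of tags per 1000000 tags in peaks (CPM) was 0.08, beside 0.06 over 2939 promoter start clusters. Of the 163 strands, 31 (19%) were 2-fold or more higher in pretreated cells, where 23.3% of all clusters were, and 33 (20.2%) were 2-fold or more lower, where 24% were. With peaks within 50 bp summed, 29 of 168 strands were 2-fold or more higher (24.6% of clusters) and 13 lower (14.1%), with a median of 0.30 beside 0.36 for clusters. The median of the strands turned to -0.24 when the highest cell of each strand was left out. This took the cell with the most tags over both groups, so only 1 group of a strand lost a cell. Group totals were kept, so the ratio moves away from that group by construction. With mean scaled signal in place of summed tags and no cell left out for its height, the median was 0.04. In 78 loci with values for both strands, both were higher in 23, both lower in 17 and opposite in 38.

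The share of tags on the plus strand was compared in the 34 loci with 10 or more cells of each group on each strand. It differed by a median of 7.64 percentage points, and by over 20 points in 7 loci; the stronger strand was the same in both groups in 29.

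**Figure D5:**
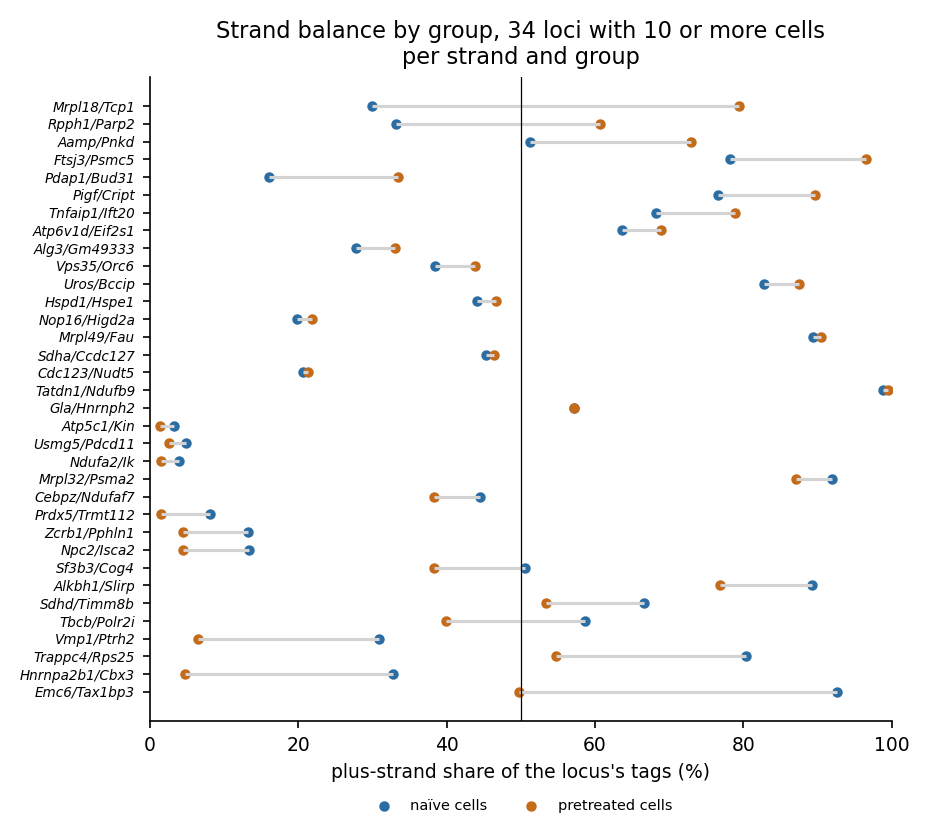
Plus-strand share of the tags of the locus (x axis, percent) in naïve (blue) and pretreated cells (orange) for the 34 loci with 10 or more cells per strand and group, ordered by the difference. Mrpl18/Tcp1 at the top moves from 30% to 79.4% and Emc6/Tax1bp3 at the bottom from 92.6% to 49.7%, while most loci differ by under 20 points.

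The largest increase of the plus share was at Mrpl18/Tcp1. Mrpl18 was at 308.7 CPM in naïve and 94.8 in pretreated cells, and Tcp1 at 132 and 364.4, so the plus share was 30% and 79.4%. Mrpl18 was listed in 82 of 92 naïve and 42 of 85 pretreated cells. With peaks within 50 bp the shares were 52.3% and 83.3%, a smaller difference in the same direction. At Rpph1/Parp2, the RNA of ribonuclease P beside a DNA damage-sensing polymerase, Rpph1 was at 160.1 and 20.7 CPM and Parp2 at 79.7 and 32, with a plus share of 33.2% and 60.7%. Aamp/Pnkd had 51.3% and 72.9%, Ftsj3/Psmc5 78.2% and 96.5%, and Pdap1/Bud31 16.1% and 33.4%. Within 50 bp the differences were smaller at Aamp/Pnkd (48.7% and 57.2%) and Pdap1/Bud31 (16.9% and 26.5%), and Ftsj3/Psmc5 had 80.4% and 95.6%. Psmc5, an ATPase of the proteasome cap, was at 104 and 255.8 CPM.

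The largest decrease was at Emc6/Tax1bp3. Emc6, a subunit of the membrane protein insertase of the endoplasmic reticulum, was at 5.81 CPM in naïve and 42.7 in pretreated cells, and Tax1bp3, a PDZ-domain protein, at 73 and 42.2. The plus share was 92.6% and 49.7%, and 88.8% and 47.7% with peaks within 50 bp. At Hnrnpa2b1/Cbx3, Hnrnpa2b1 was at 264.9 and 418.2 CPM and Cbx3 at 129.4 and 20.7, with plus shares of 32.8% and 4.71%, and 35.7% and 8.68% within 50 bp. The median signal of Cbx3 in the cells listing it was 1467.8 (262.2 to 3241.2) in 68 naïve cells and 480.1 (220.3 to 1296.8) in 32 pretreated cells, which overlapped. Trappc4/Rps25 had 80.4% and 54.7%, Vmp1/Ptrh2 30.9% and 6.51%, and Tbcb/Polr2i 58.6% and 40%. For Vmp1/Ptrh2 the difference was nearly gone within 50 bp, at 30.7% and 27.3%, and at Tbcb/Polr2i it fell to 54.1% and 49.3%. Trappc4/Rps25 had 55.3% and 37.7% within 50 bp, so the stronger strand there differed between the groups.

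Of 13 head-to-head pairs listed from general knowledge, 2 were members: Hspd1/Hspe1 and Gart/Son. Gart, a purine synthesis enzyme, and Son, a splicing cofactor, had the widest leading pair of all (948 bp), with 3747 and 185997 tags and both strands in 7 cells. With peaks within 50 bp both strands were listed in 52 of 176 cells, and counting any promoter peak of either gene in 60 cells. In each of the other 11, at least 1 of the genes had no single position in 10 or more cells. Fen1/Tmem258, for example, had a position in 138 cells for Tmem258 and none above 4 cells for the nuclease gene Fen1.

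No locus held a gene of the interferon list, of whose 98 genes 48 had a promoter position in 10 or more cells. Over all genes with such a position 5.48% were in a locus, so a count of 0 among 48 is not read as a result about the list. Head-to-head interferon-inducible genes of the list fell short of the rule. Psmb9, an immunoproteasome subunit, and Tap1, a subunit of the peptide transporter of antigen presentation, had leading positions in 34 and 8 cells. Counting any promoter peak of either gene, Psmb9 was listed in 16 of 92 naïve and 79 of 85 pretreated cells and Tap1 in 10 and 52. Both were listed in 4 naïve and 52 pretreated cells. Dtx3l and Parp9, partners in an ubiquitin ligase complex, had leading positions in 5 and 6 cells; Dtx3l was listed in 11 naïve and 35 pretreated cells, Parp9 in 13 and 52, and both in 1 and 18. The genes of each pair were listed together in more pretreated than naïve cells, beside the higher number of listed peaks in pretreated cells, whose part in this was not tested.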

How the data were processed

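Each of 192 cells had 1 deposited peak file. Bowtie2, HOMER and mm9 stand in the submitters' processing notes, with no versions. Per the file headers, HOMER called peaks in each cell and strand separately, 150 bp wide and at least 300 bp apart, with at least 200 tags per 10000000, 2 times the density of the surrounding 10000 bp and a Poisson p of 1e-04. The deposited signal is the tag count of a peak scaled to 10000000 tags, per the file headers. HOMER's focus ratio, deposited as a fraction, is the share of the tags of a peak near its main position and is not reported here. Duplicate handling is not given in the sources used here.

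The signal was turned back into tags with the total of each header; all 1080791 peaks on chromosomes that the tables cover came out within 0.1 of a whole tag and start within 2 bp of a window of the deposited GENCODE table, whose promoter annotation was used. Cells under 10% of the median total (230562.75 tags) were left out, 4 naïve and 11 pretreated. Distances are between window starts. A strand's value is the sum over its member positions and cells; 0.5 tag was added to sums in log2 ratios, scaled per 1000000 tags in peaks. Promoter clusters, the background of the 2-fold counts, are positions of 1 strand chained within 50 bp. Intervals are exact (Clopper-Pearson) at 95%. Strands were named from the GENCODE table (151 of 172), the RefSeq table (12) or an opposite neighbour in GENCODE vM21 (5), and 4 stayed unnamed. Of 168 member genes 149 matched the RefSeq promoter table (GRCm38); the motif counts used the 126 promoters of the 63 loci with an annotated divergent pair there, and 1 entry per symbol for other genes. Those coordinates are not comparable with the mm9 windows. Scripts ran in Python 3.11.15 with pandas 2.3.3, numpy 2.4.6 and scipy 1.17.1 and were tested on simulated data. Alternatives changed the cells, the minimum of cells, the distance, the annotation, the window and the peaks summed.

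Loci named with values are the 12 with the most cells listing both strands, those of a list of 13 head-to-head pairs, those with an interferon-list gene, the 5 largest and 5 smallest differences of the plus share between groups, and the 3 smallest and 3 largest distances; others named beside them were chosen after their values were seen. The members and lists were chosen with earlier results of these data known. A pair of matrices with 192 unnamed columns of per-cell values each was not used.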

Additional observations from a re-analysis of the deposited data

How the results depend on the processing

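Of 62 values recomputed under alternatives, 46 lay within the interval of the main value or, for the count of loci, differed from it by at most 1.5 times. The number of loci was 129 by deposited window, exactly 1.5 times the 86 found, and 213 with a minimum of 5 cells and 29 with 20 cells. The share with starts 300 bp apart or less (60.5%) became 71.2% with a limit of 500 bp and 47.9% when starts had to be 150 bp apart. The share with 10% or more of the tags on the weaker strand (60.5%) became 75.9% with 20 cells and 77.9% with all peaks within 50 bp. The share with both strands in 10 or more cells (47.7%) became 65.5% with 20 cells and 97.7% within 50 bp, and 24.8% and 28.4% in the odd-numbered and even-numbered cells alone, which are fewer cells by construction. The median share of listing cells with both strands (10.4%) became 7.14% with 5 cells, 17.6% with 20 cells and 38% within 50 bp. The median log2 ratio (0.08) became 0.37 by deposited window and 0.30 within 50 bp, and the cause was not tested. It became -0.24 without the highest cell of each strand, a choice that takes tags from only 1 group of a strand. No paired analysis was possible because each group is 1 sample made of cells and the cell numbers only name cells. The files hold only called peaks, and the part of depth in the listing of weak strands was not tested.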

Other observations

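At the exact member positions, 9 strands had all their tags in 1 group. Among those listed in naïve cells alone were Psenen (2133 tags), Gm5617 (1872), Mir5136 (1783) and the unnamed strand opposite Gtf2a2 (700). Psenen encodes a subunit of gamma-secretase. Listed in pretreated cells alone were Exosc8, a subunit of the RNA exosome (11314 tags), Gtf2h3, a subunit of the transcription factor TFIIH (3529), and both strands of Gm13340/unnamed (930355 and 3642). With peaks within 50 bp, Exosc8 was also listed in 9 naïve cells (4208 tags) and Gtf2h3 in 11 (1290 tags), and Psenen in 5 and Gm5617 in 17 pretreated cells. Mir5136, the strand opposite Gtf2a2 and both strands of Gm13340/unnamed were still listed in 1 group alone. Of the 439 member positions, 7.29% were listed in 1 group alone, and of the 6450 other promoter positions 12%.

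Across cells, the number of loci with both strands listed at the exact positions had a Spearman rho with the number of listed peaks of 0.43 in 92 naïve cells and -0.47 in 85 pretreated cells. With all peaks within 50 bp the values were 0.48 and 0.08, and the median number of loci with both strands was 24 per naïve cell (1 to 45) and 40 per pretreated cell (1 to 53). These are descriptions, since the cells of a group are not replicates. The part of depth in both numbers was not tested.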
